A study of Drosophila mojavensis with 14 samples.

Results

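Xdh is the gene of xanthine dehydrogenase. It was 1 of 14519 transcripts on 1-colour NimbleGen expression arrays (Cy3 label) of the lower reproductive tract of Drosophila mojavensis females, and it was found by its symbol in the deposited files, where it is 1 of 48 transcripts named by a symbol. It was picked because its signal was lower 6 h than 15 min after mating, so that difference is described here and not tested. Females of the isofemale line ANZA 402.17 had mated with Drosophila arizonae males (heterospecific), had mated with D. mojavensis males (conspecific), or were virgin. Mated tracts were taken at 15 min, 2 h or 6 h. Flies of all groups were collected as virgins and kept for 10 to 12 days, each mated female met 2 males, and 1 isofemale line stood for each species. The 7 groups had 2 samples each, described by the labels as biological replicates of 20 to 25 pooled tracts, which makes 14 arrays. In such pools, fewer cells of a type and less RNA per cell cannot be told apart.

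Xanthine dehydrogenase is a molybdenum cofactor enzyme that oxidises hypoxanthine to xanthine and xanthine to urate, the last steps of purine breakdown before urate. In Drosophila melanogaster the gene is called rosy, and its loss lowers both the red drosopterin eye pigments and urate, a scavenger of reactive oxygen. The enzyme can also work as an oxidase that releases superoxide and hydrogen peroxide. No role in the mated female tract is assumed here.

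The arrays themselves differed in 2 measures that are set against Xdh below. The probe slope, the mean rise of log2 intensity from one probe to the next along a transcript, ran from 0.10 to 0.253 over the 14 arrays. A slope of this kind is a usual sign of RNA or amplification quality. The raw upper quartile of probe intensity ran from 943 to 2912, and the 4 arrays with the lowest are called dim: conspecific 15 min replicate 2, conspecific 2 h replicate 1, conspecific 6 h replicate 1 and virgin replicate 2. No gene of the marker lists for spermatheca, ovary, fat body, muscle, nerve, blood cells, Malpighian tubule or testis could be matched (0 of 28 symbols), so the labelled tissue was not checked against its markers. The 4 Acp transcripts, named like the accessory gland proteins of males, had a summed level of 10.63 to 12.33 (log2) at 15 min after heterospecific mating and of 9.02 to 9.26 after conspecific mating, against 8.98 to 9.08 in virgins. The 25 Tes transcripts summed to 16.11 to 16.36 at 15 min after heterospecific mating and to 16.24 to 16.28 after conspecific mating, against 16.27 to 16.39 in virgins. Any part of male RNA in the Xdh signal was not tested.

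Xdh was above the background limit on all 14 arrays. That limit, set per array from the lower side of the distribution of all transcripts, lay between 7.44 and 7.73 on the same log2 scale. In virgins Xdh had a normalized log2 intensity of 9.79 on replicate 1 and 9.88 on replicate 2. At 15 min it had 10.07 and 9.92 after heterospecific mating and 9.94 and 10.99 after conspecific mating. At 2 h it had 9.15 and 8.94 after heterospecific mating and 10.08 and 9.05 after conspecific mating. Both 2 h arrays of the heterospecific group thus lay near 9, while those of the conspecific group were split, with replicate 1 at the level of the 15 min arrays and replicate 2 at that of the heterospecific ones. At 6 h it had 9.44 and 8.77 after heterospecific mating and 8.06 and 8.31 after conspecific mating. The conspecific 6 h arrays were the lowest of the 14, and replicate 1 of that group stood only 0.34 above the limit of its array.

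**Figure D1:**
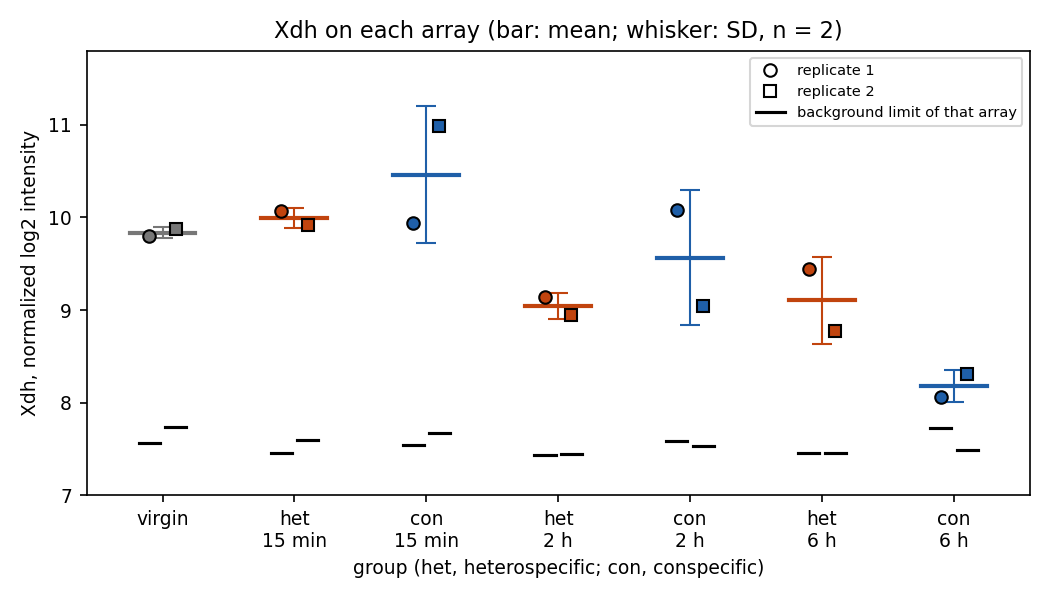
Normalized log2 intensity of Xdh (vertical axis) on the 14 arrays, by group; points are arrays, horizontal bars group means, whiskers the SD of 2 arrays, and short black bars the background limit of each array. The 4 arrays at 6 h sit between 8.06 and 9.44, below the 4 at 15 min, which sit between 9.92 and 10.99.

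In order of their means the groups were conspecific 15 min (10.46 ± 0.74), heterospecific 15 min (9.99 ± 0.11), virgin (9.84 ± 0.06), conspecific 2 h (9.56 ± 0.73), heterospecific 6 h (9.11 ± 0.47), heterospecific 2 h (9.04 ± 0.14) and conspecific 6 h (8.18 ± 0.17; SD, n = 2 each). The pooled SD between arrays of a group was 0.44. Of the neighbours in this order, 2 pairs had arrays that did not overlap: heterospecific 15 min and virgin, whose means differed by only 0.16, and heterospecific 2 h and conspecific 6 h, which differed by 0.86. All other neighbours overlapped. For the 2 pairs without overlap the share over all transcripts was not counted, and each holds a group that Xdh was picked on. Such separation was common between other groups. Heterospecific 6 h lay above conspecific 6 h for 24.8% of all transcripts. Heterospecific 2 h lay below virgin for 27.2%, and conspecific 6 h below virgin for 14.3%.

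The values that led to the choice of Xdh were these. Over both matings it averaged 8.65 at 6 h and 10.23 at 15 min, a log2 difference of -1.58 (SE 0.27), so the level at 15 min was 2.99-fold that at 6 h. The difference was -0.89 after heterospecific mating, with means of 9.11 at 6 h and 9.99 at 15 min. After conspecific mating it was -2.28, with 8.18 at 6 h and 10.46 at 15 min. All 4 arrays at 6 h were below all 4 at 15 min, which held for 5.17% of all transcripts. The limma fit over all transcripts called 1.28% of them lower at 6 h at an adjusted p under 0.05. No call is given for Xdh, which was picked on this difference. Without heterospecific 6 h replicate 1 or 2 the heterospecific difference was -1.22 or -0.55. Probe values were read from the images on 2 days. The heterospecific arrays of day 1 alone, with 1 array at 15 min, gave -0.96. The conspecific arrays of day 2 alone gave -2.40, with 1 array at 6 h, which is dim and has the flattest slope. Day ran nearly with time in these groups. At 15 min only heterospecific replicate 1 was read on day 1, and at 6 h only conspecific replicate 1 on day 2.

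After heterospecific mating the mean was already as low at 2 h as at 6 h: it differed from 15 min by -0.95 at 2 h and by -0.89 at 6 h. After conspecific mating it differed from 15 min by -0.90 at 2 h and by -2.28 at 6 h. These steps use the groups Xdh was picked on and are given as values. Relative to virgins, Xdh was not raised far at 15 min: the log2 difference was 0.16 after heterospecific mating and 0.63 after conspecific mating. The value of 0.63 was carried by replicate 2, a dim array with the steepest slope, at 10.99, while replicate 1 had 9.94, against a virgin mean of 9.84. All 4 arrays at 15 min were above both virgin arrays, as for 4.98% of all transcripts. The gap was small beside the pooled SD of 0.44: the lowest 15 min array had 9.92 and the higher virgin array 9.88. At 6 h it was -0.73 after heterospecific mating and -1.65 after conspecific mating, and all 4 arrays were below both virgin arrays, as for 8.15% of all transcripts. Over both matings the mean at 6 h lay 1.19 below that of virgins on the log2 scale. The 15 min and 6 h arrays are those Xdh was picked on, so their differences from virgins are given as values and were not tested. Both virgin arrays were read on image day 2. Of the 6 h arrays only conspecific replicate 1 was read on that day.

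The array held 5 probes for Xdh, at positions 2685, 2895, 3411, 3418 and 3722 along the transcript as the files number them. Those at 3411 and 3418 start 7 bases apart and so may share sequence. The 3 probes nearest the end carried the pattern. The probe at 3722 had raw intensities of 895 and 670 at 6 h after heterospecific mating, 1688 and 1585 at 15 min after it, 389 and 468 at 6 h after conspecific mating, and 1634 and 1732 at 15 min after it. These are intensities before any normalization, and in them the 6 h arrays were below the 15 min arrays. They come from the arrays Xdh was picked on and are no separate support. Conspecific 15 min replicate 2 and conspecific 6 h replicate 1 are dim arrays, so raw values do not compare directly between arrays. In virgins the same probe had 1766 and 1310. After normalization the difference of 6 h from 15 min over both matings was -1.74 at position 3411, -1.72 at 3418 and -1.93 at 3722, and at each of these the highest 6 h array was below the lowest 15 min array.

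The upstream probes had weaker signals. The probe at 2685 had raw intensities of only 166 to 262 on the 14 arrays and differed by -0.17. Its normalized values, 6.75 to 7.44, lay at the level of background, where a fall could hardly show. The background limits for transcripts began at 7.44. The probe at 2895, with 192 to 619, differed by 0.04 after heterospecific mating and by -1.40 after conspecific mating. On the conspecific 6 h arrays it had 7.11 and 6.85, below the limits of those arrays. With the 3 probes nearest the end alone, a choice made after seeing the data, Xdh differed by -1.76 over both matings. The transcript value rests on all 5 probes.

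**Figure D2:**
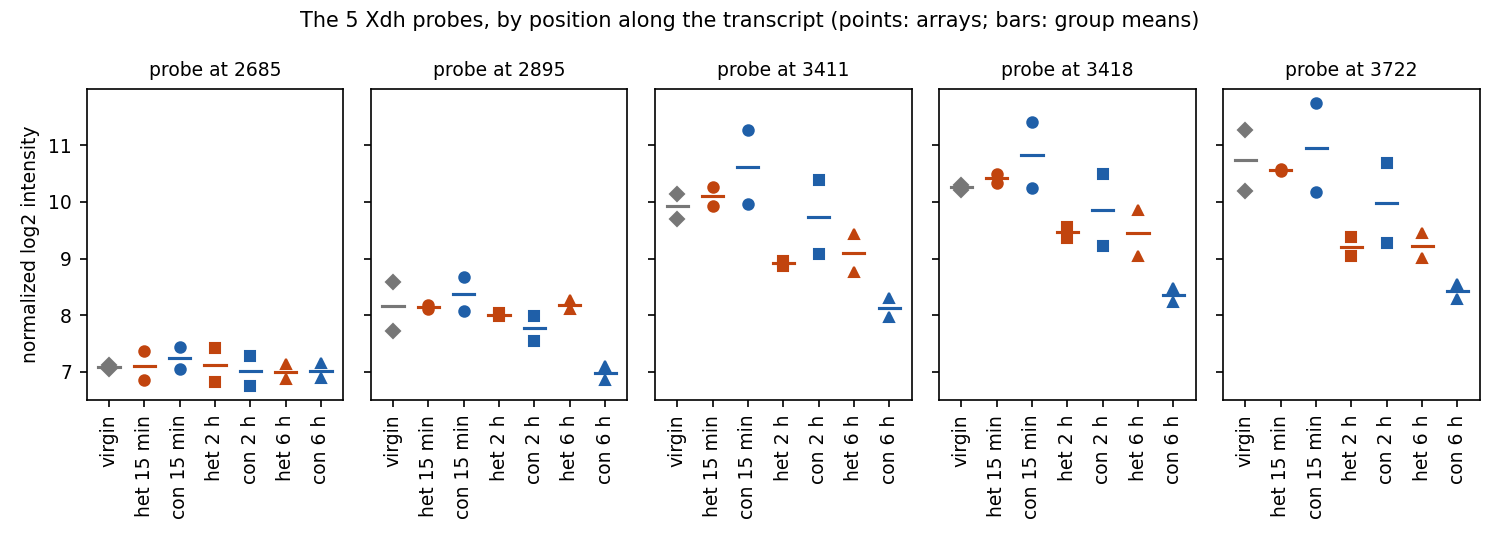
Normalized log2 intensity (vertical axis) of each of the 5 Xdh probes by group, with points for arrays and bars for group means of 2 arrays. The probe at 2685 is nearly flat at the level of background, while at 3411, 3418 and 3722 the 6 h arrays lie below the 15 min arrays.

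Xdh moved with the probe slope of the arrays. Over the 14 arrays Pearson's r between the slope and Xdh was 0.859 and Spearman's rho was 0.930, given as a description with no test, because 8 of the arrays are those Xdh was picked on. Leaving out conspecific 15 min replicate 2 and conspecific 2 h replicate 1, the 2 arrays with the slopes farthest from the median, gave an r of 0.839. Within the image days r was 0.625 (day 1, 6 arrays) and 0.907 (day 2, 8 arrays). Of all transcripts, 1.17% had an r with the slope at least as high as that of Xdh over the 14 arrays. The raw upper quartile of the array, the other measure set against Xdh, had an r of -0.334 and a rho of -0.358. That r was 0.134 without the 2 farthest arrays, -0.481 on day 1 and -0.122 on day 2.

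Because the slope also moved with time after mating, the pooled r includes the difference Xdh was picked for. The mean slope was 0.137 at 6 h and 0.180 at 15 min after heterospecific mating, 0.129 at 6 h and 0.220 at 15 min after conspecific mating, and 0.175 in virgins. The difference between times does not enter within a group. There the array with the steeper slope had the higher Xdh in 7 of 7 groups, as for 2% of all transcripts. Conspecific 15 min replicate 2 had a slope of 0.253 and an Xdh of 10.99, against 0.187 and 9.94 on replicate 1. Conspecific 2 h replicate 1 had 0.249 and 10.08, against 0.126 and 9.05 on replicate 2. In virgins the slopes were 0.1752 and 0.1753, so the order there says little. The deviations of the 14 arrays from their group means had an r of 0.914 between slope and Xdh, given as a description since each group adds 1 independent difference. With the slope as a covariate the difference of 6 h from 15 min was -0.93 over both matings, -0.47 after heterospecific and -1.40 after conspecific mating. Slope and time after mating moved together on these 14 arrays, so their parts in this difference cannot be told apart. Any part of array quality in it was not tested.

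**Figure D3:**
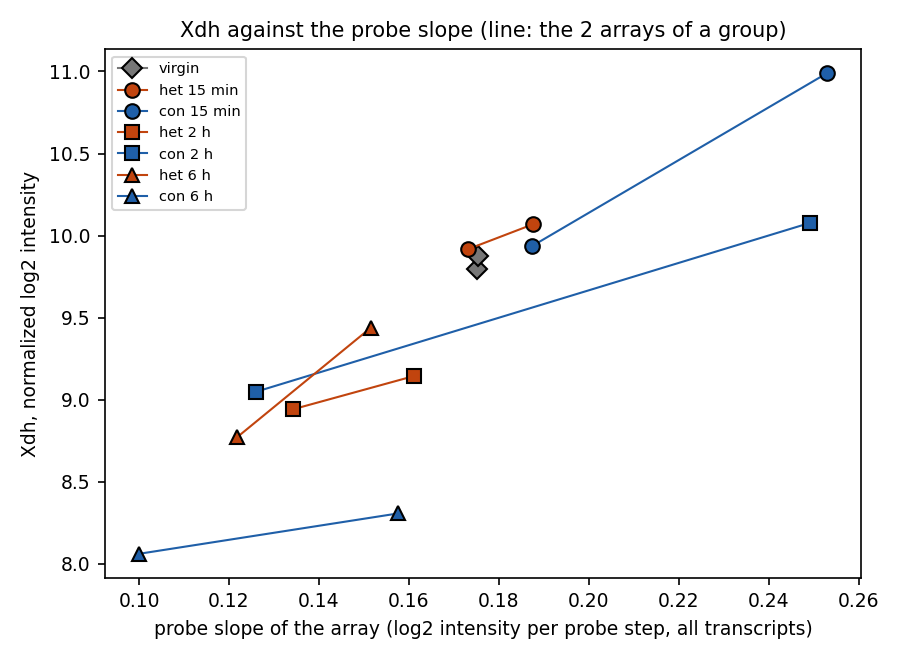
Normalized log2 intensity of Xdh (vertical axis) against the probe slope of each array (horizontal axis, log2 intensity per probe step over all transcripts), with a line joining the 2 arrays of a group. Every line rises to the right. Conspecific 6 h replicate 2, at a slope of 0.158, lies at 8.31, while heterospecific 2 h replicate 1, at 0.161, lies at 9.15.

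Whether Xdh depended on the species of the male was tested, since that comparison is independent of the choice. Averaged over the 3 times it did not differ beyond the spread: the mean was 9.38 after heterospecific and 9.40 after conspecific mating, a log2 difference of -0.02 (95% interval -0.51 to 0.46, limma adjusted p = 0.960). The interval allows a level from 0.703-fold to 1.38-fold. The same comparison called 0.186% of all transcripts. An exact permutation of mating type within each time (216 arrangements, 2-sided, smallest possible p of 0.00926) gave p = 0.944.

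At single times the sign of the difference between matings changed, and none passed the test. At 15 min it was -0.47 (95% interval -1.31 to 0.37, limma adjusted p = 0.982, 0.0551% of transcripts called), and it was 0.06 without conspecific 15 min replicate 2. At 2 h it was -0.52 (-1.36 to 0.32, adjusted p = 0.688, 0.0207% called), and it was -0.01 or -1.03 without conspecific 2 h replicate 1 or 2. At 6 h Xdh was at 9.11 after heterospecific and 8.18 after conspecific mating, a difference of 0.92 (0.08 to 1.76, unadjusted p = 0.0348, limma adjusted p = 0.502, 0.00689% called). Both heterospecific arrays at 6 h were above both conspecific ones, as for 24.8% of all transcripts. Without heterospecific 6 h replicate 1 the difference was 0.59, and with cyclic loess it was 0.61 (unadjusted p = 0.138, limma adjusted p = 0.508). With the slope as a covariate it was 0.85 (unadjusted p = 0.0018, limma adjusted p = 0.445). Without the 4 dim arrays, and likewise on day 1 alone, it was 0.80. Both settings leave out conspecific 6 h replicate 1 and keep the same 6 h arrays, with 1 conspecific array. They are therefore not separate checks.

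The difference of 6 h from 15 min was -0.89 after heterospecific and -2.28 after conspecific mating, and these 2 changes differed by 1.39 (95% interval 0.20 to 2.58, unadjusted p = 0.0261). Its limma adjusted p was 0.983, and the test called 0% of all transcripts (0 of 14519 by limma, with 466 at an unadjusted p under 0.05). A difference in the size of the change between matings was thus not established in the test over all transcripts. It was 0.87 without conspecific 15 min replicate 2 (unadjusted p = 0.117, limma adjusted p = 0.890), 0.74 without the 4 dim arrays (unadjusted p = 0.0858, limma adjusted p = 0.812) and 0.93 with the slope as a covariate. These intervals are not adjusted for the number of tests.

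The means of Xdh after mating, taken over the times, were below that of virgins by less than the error allows to call. Averaged over the 3 times the log2 difference was -0.45 after heterospecific mating (95% interval -1.14 to 0.23, limma adjusted p = 0.451, 0.103% of transcripts called). After conspecific mating it was -0.43 (-1.12 to 0.26, adjusted p = 1.00, 0.0413% called). At 2 h, which shares no mated array with the choice, Xdh was at 9.04 after heterospecific mating and 9.84 in virgins, a difference of -0.79 (-1.63 to 0.05, unadjusted p = 0.0629, limma adjusted p = 0.345, 0.0689% called). Both heterospecific 2 h arrays were below both virgin arrays, as for 27.2% of all transcripts. After conspecific mating the difference at 2 h was -0.27 (-1.11 to 0.57, adjusted p = 0.999, 0.0344% called), and it was -0.79 or 0.24 without replicate 1 or 2 of that group. The images of these heterospecific arrays were read on another day than those of the virgins. A fit with the image day as a term gave -0.99 for the heterospecific difference (limma adjusted p = 0.911). Median scaling gave -0.39 (adjusted p = 0.588) and the slope as a covariate -0.53 (adjusted p = 0.330). Over the 3 times median scaling gave -0.15 and the slope as a covariate -0.26 after heterospecific mating.

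The 2 h mean after heterospecific mating, 9.04, lay below those at 15 min (9.99) and 6 h (9.11), and that after conspecific mating, 9.56, lay between 10.46 and 8.18. Over both matings Xdh at 2 h averaged 9.30, against a midpoint of 9.44 between 15 min and 6 h, a difference of -0.13 (95% interval -0.65 to 0.38, limma adjusted p = 0.999). That test called 0% of all transcripts (0 by limma, with 517 at an unadjusted p under 0.05). The interval leaves room for a curved course in either direction, and the mean over both matings does not describe either mating alone.

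**Figure D4:**
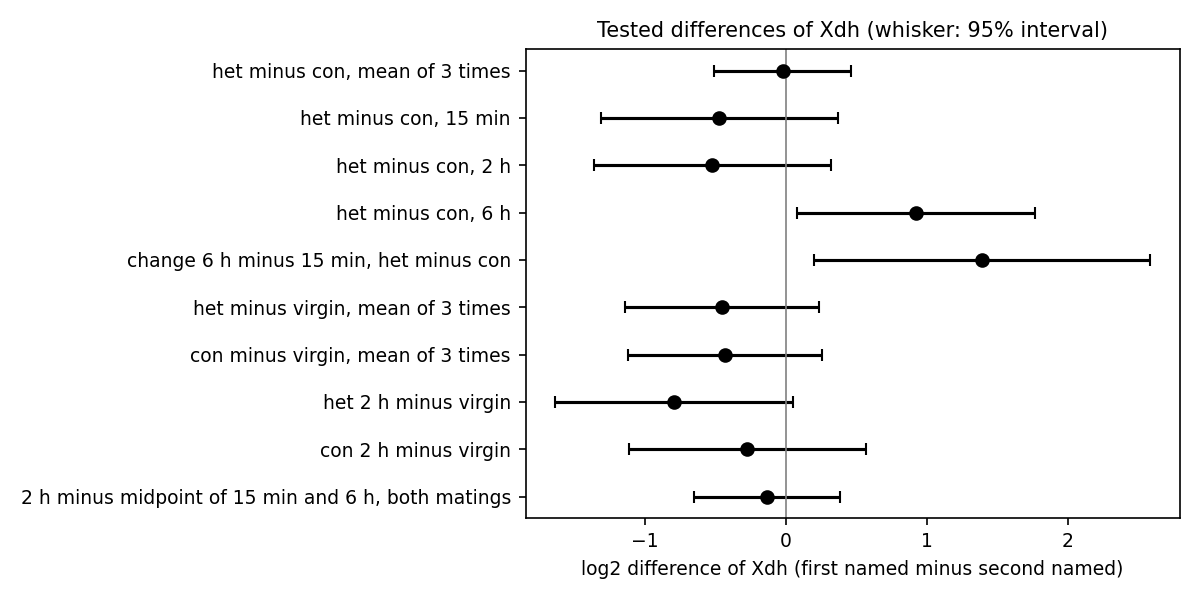
The 10 tested log2 differences of Xdh (horizontal axis), each the first named minus the second named (het, heterospecific; con, conspecific), with 95% intervals not adjusted for the number of tests. The intervals for the matings at 6 h (0.08 to 1.76) and for their changes (0.20 to 2.58) lie above 0, and neither adjusted p is under 0.05.

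The enzymes around xanthine dehydrogenase could not be placed beside it. Of 50 symbols for purine breakdown and salvage, the molybdenum cofactor, pteridine pigments and the removal of peroxide and superoxide, 0 were matched on the array, since nearly all transcripts there bear GI numbers that the reference table did not pair with names. Adh1 and Adh2, which encode alcohol dehydrogenases, were named by a symbol and are given beside it. Over both matings Adh1 averaged 9.42 at 6 h and 10.01 at 15 min, a log2 difference of -0.59. Adh2 averaged 10.74 at 6 h and 10.73 at 15 min. Neither passed any of the 10 tests made for Xdh.

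Transcripts with a time course like that of Xdh were ranked by Pearson's r over the 7 group means, among 10045 other transcripts above background in at least 1 group. Group means share arrays and array quality with Xdh, so r is a description. Of these transcripts 280 (2.79%) had an r above 0.9. The named transcripts most like it were Tes134 (r = 0.944), Marf (0.922), per (0.908), Tes31 (0.819) and Tes131 (0.817). At 6 h Tes131 was above background on 0 of 4 arrays and per on 1 of 4, so the low end of their courses is at background. In Drosophila melanogaster Marf is a mitofusin of the outer mitochondrial membrane and per, period, is part of the circadian clock. The GI numbers with the highest r were GI13750 (0.994) and GI20157 (0.992), and those with the lowest were GI16049 (-0.992) and GI10780 (-0.979).

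Tes134 stayed close to Xdh array by array, with an r of 0.939 over the 14 arrays. It had 9.91 and 9.07 at 6 h after heterospecific mating and 9.34 and 9.34 after conspecific mating, against 10.54 and 10.52 at 15 min after heterospecific and 10.22 and 11.44 after conspecific mating. As for Xdh, its highest array was conspecific 15 min replicate 2. GI13750 had an r of 0.972 over the arrays, and its mean was 9.02 at 6 h and 9.95 at 15 min. Tes31 was like Xdh in the group means only, with an r of 0.394 over the arrays. GI16049 ran the other way, with a mean of 11.27 at 6 h, 10.41 at 15 min and 10.61 in virgins.

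**Figure D5:**
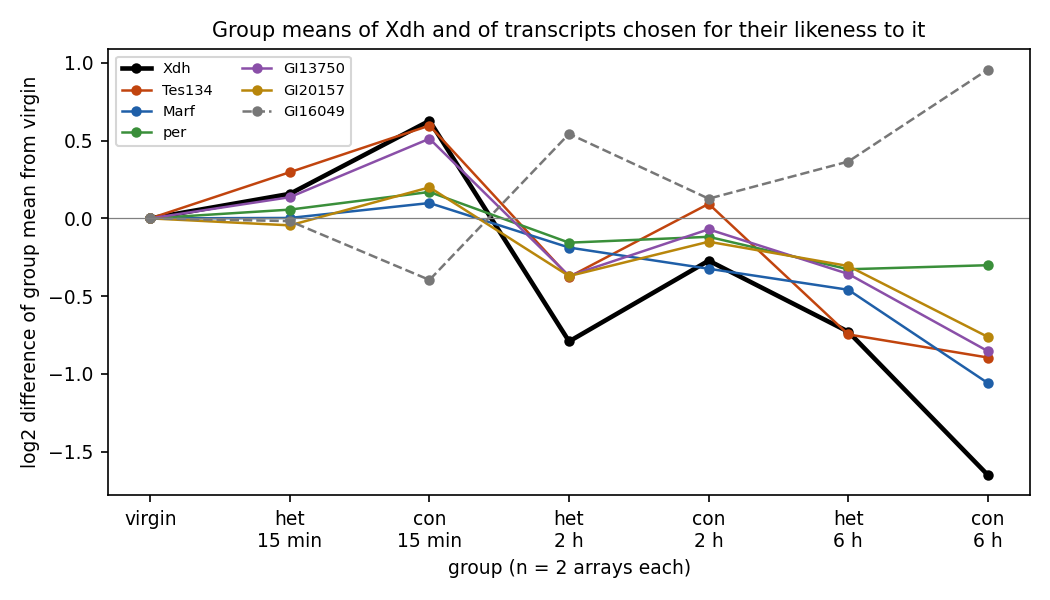
Difference of each group mean from the virgin mean (vertical axis, log2; n = 2 arrays a group) for Xdh and for 6 transcripts chosen by their r with it. Xdh has the widest range of the 7 lines shown, with 0.63 at conspecific 15 min and -1.65 at conspecific 6 h, and GI16049 is drawn dashed because its r is negative.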

How the data were processed

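The deposited files held 1 raw perfect-match intensity per probe, extracted by the authors with NimbleScan 2.4.67 per the file headers, from amplified RNA per the labels' protocols. RMA is named in the submitters' processing notes, yet the deposited series table equalled the raw intensity (0 values differed). Probe intensities (71998) were corrected with normexp (offset 50) and quantile normalized. Median polish of the log2 values gave 1 value per transcript (R 4.3.3, limma 3.58.1). The offset understates changes of dim transcripts. The background limit of an array lies 2 SDs above the mode of its transcript values, with the SD taken from the values below the mode; it was set with the data known. All 14519 transcripts were fitted with 1 mean per group over 14 arrays (limma, with 7 residual degrees of freedom and 3.56 from the prior). All tests were 2-sided, with Benjamini-Hochberg adjustment over all transcripts and a threshold of 0.05. The number of arrays limits the precision. The fit was tested on simulated data.

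Image days came from the file headers: day 1 held the heterospecific arrays of 2 h and 6 h, conspecific 6 h replicate 2 and heterospecific 15 min replicate 1, and day 2 held the remaining 8. Each array had its own slide. Likeness to Xdh was ranked by r over group means: the 5 highest transcripts with a symbol, and the 2 highest and 2 lowest GI numbers. The gene and the lists were chosen with earlier results of these data known. Alternatives varied the background correction, normalization, summary, probes, arrays, filter, eBayes settings, blocks and weights. The sequence of Xdh and its place in the genome were not analysed here, because the reference table did not name it.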

Additional observations from a re-analysis of the deposited data

How the results depend on the processing

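None of the 10 tested differences of Xdh passed an adjusted p of 0.05 under any alternative run, those without 1 array included. The lowest adjusted p was 0.206, and a p that misses the threshold does not show that values did not differ. The difference of matings over the 3 times changed sign easily, from -0.20 to 0.15 without 1 array and from -0.15 to 0.28 otherwise. At 6 h it stayed positive, from 0.59 to 1.25. The difference of 6 h from 15 min stayed negative in every fit. Over both matings it was -1.85 to -1.32 without 1 array, and a fit that includes the probe slope gave -0.93. After heterospecific mating it was -1.22 to -0.55 without 1 array. After conspecific mating it was -2.80 to -1.75 without 1 array, -1.82 with the mean of the probes, -1.40 in the fit that includes the probe slope and -1.63 without the 4 dim arrays. The cause was not tested. With the replicate number as a block (replicate block) the difference of matings at 6 h kept its value of 0.92 with an adjusted p of 0.583, and no call changed. The numbers did not pair the samples: over 21 pairs of groups the correlation of deviations ran from -0.63 to 0.51. Median scaling shifted the median of all transcripts by -0.13 for the matings at 2 h, and by 0.13 and 0.16 for conspecific mating against virgin (3 times and 2 h). Leaving out 1 array also turned the sign of the difference of matings at 15 min (up to 0.06), of conspecific 2 h from virgin (up to 0.24) and of 2 h from the midpoint (up to 0.12), and none of these was called with either sign. Fits without 1 array used values normalized over all 14, and a group left with 1 array was assumed to vary like the others.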
